A study of Mus musculus with 14 samples.

Results

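The receptors described here are 7 surface or Fc receptor-like molecules of B cells: Cd22, Cd72, Fcgr2b, Fcrla, Fcmr, Fcer2a and Ms4a1. They were taken by gene symbol from the annotation of the array, older symbols included, and are 7 of the 18193 genes and 16 of the 45101 probe sets measured. Their transcripts were read on 14 Affymetrix 3' arrays of mouse bone marrow cells, in 6 groups, all with C57Bl6 given as the strain. Pax5KO engrafted cells (3 arrays) and WT engrafted cells (3 arrays) grew in irradiated mice that had received fetal liver of day 15 embryos, without Pax5 or wild type. The donor cells of both groups carried a reporter for λ5, and 4 weeks later marrow cells that showed B220 and this reporter were sorted. The other groups had 2 arrays each and came from marrow of mice without a transplant: Ly6D- CLP, Ly6D+ CLP, ProB and PreB, where CLP stands for common lymphoid progenitor. The labelled age is 8 to 12 weeks for every group. The labels call the arrays of a group biological replicates but do not say how many mice stand behind an array, or which part of Pax5 the knockout lacks.

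Antigen receptor signalling in B cells is held in check by co-receptors whose cytoplasmic tails carry inhibitory tyrosine motifs. Once phosphorylated by the kinase Lyn, these motifs recruit phosphatases: CD22 and CD72 recruit the tyrosine phosphatase SHP-1, and FcγRIIB, the product of Fcgr2b, recruits the lipid phosphatase SHIP-1. Fc receptors bind the constant part of antibodies, IgG for FcγRIIB, IgM for the product of Fcmr and IgE for CD23, the product of Fcer2a. Fcrla encodes an Fc receptor-like protein that stays inside B cells, and Ms4a1 encodes CD20, the membrane protein that therapeutic anti-CD20 antibodies bind. Pax5 is a transcription factor needed for B lineage commitment.

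Promoter sequences show the DNA next to the start sites of Cd72, Fcrla and Fcmr, which differed strongly between the engrafted groups, together with Cd22, which kept part of its signal without Pax5. The sequences are from RefSeq (GRCm38.p6), from 250 bases before to 50 bases after the start, on the strand of the gene. An entry was found for 6 of the 7 receptors, all but Ms4a1. The Cd72 promoter is chr4:43454577-43454876 (minus strand), that of Fcrla is chr1:170927534-170927833 (minus strand), that of Fcmr is chr1:130865527-130865826 (plus strand) and that of Cd22 is chr7:30878979-30879278 (minus strand). Capitals mark matches to GAGGAA, the core bound by the factor PU.1, read here on the opposite strand, or to CCCNNGGG, the palindrome bound by EBF1.
Cd72: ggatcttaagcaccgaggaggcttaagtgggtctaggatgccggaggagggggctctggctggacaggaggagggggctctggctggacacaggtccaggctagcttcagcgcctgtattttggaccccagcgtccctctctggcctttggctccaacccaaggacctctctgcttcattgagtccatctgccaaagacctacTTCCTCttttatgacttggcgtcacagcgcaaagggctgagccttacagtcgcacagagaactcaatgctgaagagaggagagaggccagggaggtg
Fcrla: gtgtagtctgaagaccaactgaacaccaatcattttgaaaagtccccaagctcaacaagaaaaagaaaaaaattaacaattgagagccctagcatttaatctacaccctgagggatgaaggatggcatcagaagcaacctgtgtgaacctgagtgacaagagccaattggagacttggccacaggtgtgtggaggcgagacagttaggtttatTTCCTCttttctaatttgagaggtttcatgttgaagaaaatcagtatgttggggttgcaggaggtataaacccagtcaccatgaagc
Fcmr: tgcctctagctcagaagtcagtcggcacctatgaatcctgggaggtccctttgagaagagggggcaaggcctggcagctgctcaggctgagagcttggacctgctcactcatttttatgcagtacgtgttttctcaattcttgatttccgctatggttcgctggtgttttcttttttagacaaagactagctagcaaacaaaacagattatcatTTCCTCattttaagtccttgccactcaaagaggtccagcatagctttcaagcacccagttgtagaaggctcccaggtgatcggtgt
Cd22: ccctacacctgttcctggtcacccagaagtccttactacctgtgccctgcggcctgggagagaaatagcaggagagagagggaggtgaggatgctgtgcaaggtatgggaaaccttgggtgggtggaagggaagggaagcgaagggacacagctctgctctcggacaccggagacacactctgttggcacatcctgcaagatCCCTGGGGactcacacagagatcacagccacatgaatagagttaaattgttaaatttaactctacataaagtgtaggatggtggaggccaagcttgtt
The match to GAGGAA starts 47 bases before the start of Cd72, 37 before that of Fcrla and 36 before that of Fcmr. Of 32851 mouse promoters of this length, 28.3% hold this motif on either strand. No match to it was found for Fcgr2b and Cd22, which were also lower in Pax5KO than in WT engrafted cells, or for Fcer2a. The match to CCCNNGGG starts 48 bases before the start of Cd22, and 13.7% of the promoters hold it. A core of the Pax5 paired domain site, GCGTGAC, was found in none of the 6 receptors' windows and in 2.09% of all promoters. The motif CANNTG, not marked, was found in all 6 and in 72.3% of all promoters. These matches describe the letters in the windows and are not binding sites shown by these data.

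Values are log2 signals as deposited, on which 1 unit is a 2-fold difference. The table ends at a floor of 2.32, and a group is called at the floor where each of its arrays lay within 0.5 of it. A difference from such a group is a lower bound, and a pair of groups that are both there gets none. Differences were tested with limma over all 18193 genes, each read by its probe set of highest mean, and were called at a Benjamini-Hochberg adjusted p under 0.05. In bulk samples, fewer cells that carry a transcript and less of it per cell cannot be told apart. Levels of different genes are not set against each other, because probe sets differ in brightness.

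The 7 measured early B lineage genes had a mean log2 signal of 10.9 to 11.2 on the Pax5KO arrays and 11.4 to 11.6 on the WT engrafted arrays, 5.91 to 5.95 in Ly6D- CLP and 10.6 to 11.1 across Ly6D+ CLP, ProB and PreB. Pax5 itself read 7.95, 7.92 and 7.57 in Pax5KO cells and 6.76, 6.18 and 6.60 in WT engrafted cells, which does not test the genotype, since the probe set may lie outside the deleted part. Igll1, which encodes λ5 and stands behind the reporter used in the sort, had means of 12.88 in Pax5KO and 11.98 in WT engrafted cells. Xist, the transcript of the inactive X chromosome, was above 10 on all 3 Pax5KO arrays, on WT engrafted array 3 and on both ProB arrays, and below 3 on the others, so the sex of the cells differed between groups and within the WT engrafted group. All markers of T cells were at the floor in 5 of the groups and all but Cd4 in WT engrafted cells. The PreB arrays carried transcripts of other marrow cells, which are given beside the results of that group.

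Cells without Pax5 had little of the signal of most of these receptors. Of the 7 receptors, 6 were lower in Pax5KO than in WT engrafted cells, and none was higher. Over all genes 2.29% were called lower and 3.64% higher. The median difference of the 7 was -8.48 on the log2 scale, against 0 over all genes. Fcrla, Ms4a1, Cd72 and Fcmr had the 4 largest measured falls among the 18193 genes, an order that depends on probe brightness and on the floor, where the fall of Fcmr is a lower bound. Tested probe set by probe set, 13 of 16 were called lower, against 1.69% of all probe sets with 1 gene. Of the others, 2 were at the floor on all arrays and the last, of Fcer2a, missed the threshold.

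**Figure D1:**
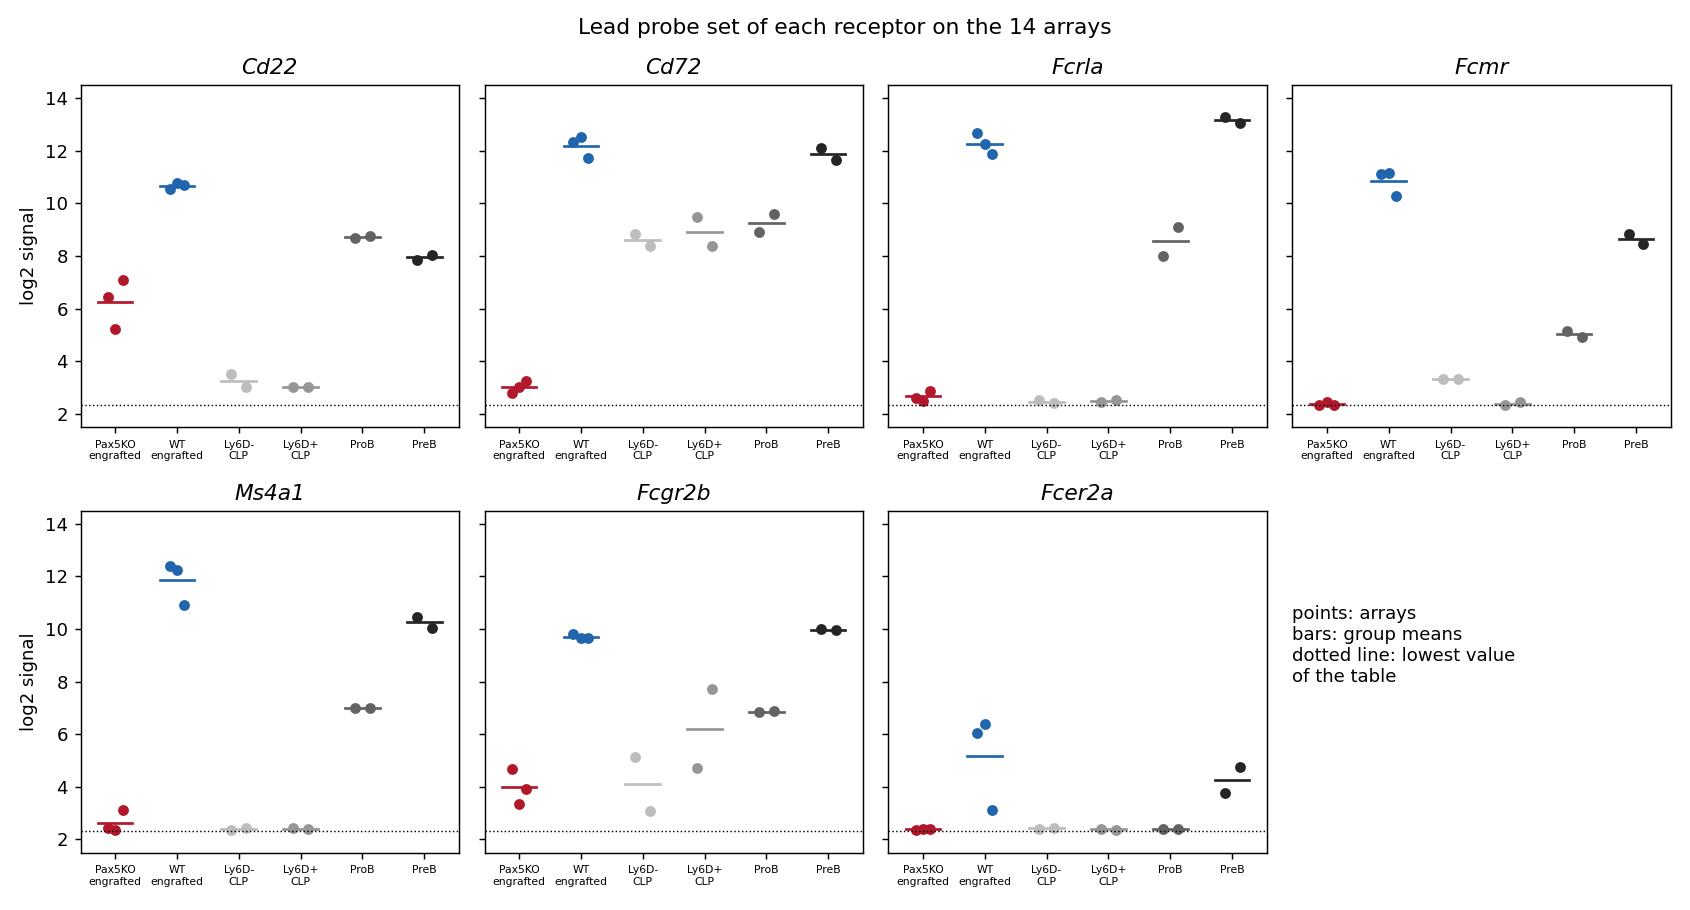
The log2 signal of the lead probe set of each receptor on each of the 14 arrays (points), with group means (bars) and the lowest value of the table (dotted line). In Pax5KO engrafted cells every receptor except Cd22 and Fcgr2b lies within 1 unit of the lowest value, and Cd72 is the receptor that is high in both CLP groups.

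Cd72, a lectin-like receptor that binds the semaphorin CD100, read 2.78, 3.02 and 3.26 in Pax5KO cells and 12.33, 12.54 and 11.71 in WT engrafted cells. Among the cells without transplant, Ly6D- CLP had 8.82 and 8.38, Ly6D+ CLP 9.49 and 8.36, ProB 8.89 and 9.58 and PreB 12.09 and 11.63. The transcript was thus well above the floor in every group except the Pax5KO cells, whose highest array lay below every other array of the series. Cd72 fell by 9.17 in Pax5KO against WT engrafted cells (SE 0.35, limma adjusted p = 1.92e-06). It was also lower in Pax5KO cells than in Ly6D+ CLP, by -5.90 (SE 0.39, limma adjusted p = 0.000138), and than in Ly6D- CLP, by -5.57 (SE 0.39, limma adjusted p = 9.83e-05). Over all genes, 1.03% were lower in Pax5KO cells than in Ly6D+ CLP and 2.04% lower than in Ly6D- CLP. With only the 2 groups in the fit, the adjusted p against Ly6D+ CLP was 0.0769. Pax5KO engrafted cells and CLP came from transplanted and untransplanted marrow, so genotype and transplant cannot be told apart in these comparisons.

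Across the cells without transplant, Cd72 rose at 1 step. It was higher in PreB than in ProB by 2.62 (SE 0.43, limma adjusted p = 0.00548), against 6.35% of all genes called higher at this step. Ly6D+ and Ly6D- CLP differed by 0.33 (95% interval -0.64 to 1.30) and ProB and Ly6D+ CLP by 0.31 (95% interval -0.66 to 1.29), neither of them called. In the order of the 6 groups, Pax5KO cells were lowest, then came both CLP groups and ProB, which did not differ between neighbours, and then PreB and WT engrafted cells, where WT engrafted cells exceeded PreB by 0.33 (SE 0.39, not called). When arrays with high Xist had a term of their own in the fit, the excess of PreB over ProB was 1.90 and lost its call (limma adjusted p = 0.195), as it did with only the 2 groups in the fit (limma adjusted p = 0.118).

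Cd22, the lectin that binds sialic acid on its own and on other cells, read 6.43, 5.21 and 7.09 in Pax5KO cells and 10.55, 10.78 and 10.68 in WT engrafted cells. Among the cells without transplant, Ly6D- CLP had 3.51 and 3.01, both Ly6D+ CLP arrays had 2.998, ProB had 8.67 and 8.74 and PreB had 7.86 and 8.04. Whether the identical value of the Ly6D+ CLP arrays exceeds the background of this probe set was not tested. The 3 Pax5KO arrays lay below all WT engrafted, ProB and PreB arrays and above all CLP arrays. Cd22 fell by 4.43 in Pax5KO against WT engrafted cells (SE 0.39, limma adjusted p = 0.000288). It was lower in Pax5KO cells than in ProB by -2.46 (SE 0.44, limma adjusted p = 0.0149), where 1.02% of all genes were called lower, and this call was lost without ProB array 2 (limma adjusted p = 0.0733), with array weights (0.0806) and with only the 2 groups in the fit (0.256). It was higher in Pax5KO cells than in Ly6D+ CLP by 3.25 (SE 0.44, limma adjusted p = 0.00835), against 0.781% of all genes called higher. The rise over Ly6D+ CLP was not called with only the 2 groups in the fit (limma adjusted p = 0.312), with array weights (0.244) or when high Xist was a term of the fit (0.122).

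The step at which Cd22 was higher came between CLP and ProB. ProB exceeded Ly6D+ CLP by 5.71 (SE 0.48, limma adjusted p = 0.000408), where 1.93% of all genes were called higher. PreB and ProB differed by -0.76 (95% interval -1.86 to 0.35, limma adjusted p = 0.401). WT engrafted cells were higher than PreB by 2.72 (SE 0.44, limma adjusted p = 0.00769), against 4.52% of all genes called higher. From low to high the groups ran Ly6D+ CLP, Ly6D- CLP, Pax5KO engrafted, PreB, ProB and WT engrafted, and the 2 pairs of neighbours that did not differ were the CLP groups and PreB with ProB. A second, dimmer probe set read 2.61, 2.40 and 2.61 in Pax5KO cells and 7.25, 6.80 and 6.69 in WT engrafted cells. On it the Pax5KO cells were at the floor, like both CLP groups and PreB, so the intermediate level was seen on the lead probe set alone. ProB read 5.17 and 2.98 on this dimmer probe set. Its excess over Ly6D+ CLP there, at least 1.60, was not called (limma adjusted p = 0.186).

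Fcgr2b, the inhibitory IgG receptor, read 4.68, 3.35 and 3.91 in Pax5KO cells and 9.80, 9.68 and 9.67 in WT engrafted cells on its lead probe set. Among the cells without transplant, Ly6D- CLP had 5.14 and 3.09, Ly6D+ CLP 4.73 and 7.70, ProB 6.84 and 6.88 and PreB 10.001 and 9.96. The engrafted groups did not overlap, whereas the arrays within each CLP group lay over 2 units apart. Fcgr2b fell by 5.73 in Pax5KO against WT engrafted cells (SE 0.76, limma adjusted p = 0.00284). The excess of PreB over ProB, 3.12 (SE 0.94), was not called (limma adjusted p = 0.0699), while the arrays of PreB and ProB did not overlap, as for 22.4% of all genes in this direction. That of ProB over Ly6D+ CLP was 0.65 (95% interval -1.49 to 2.78), and without Ly6D+ CLP array 1 it was -0.84. Between Ly6D+ and Ly6D- CLP the difference was 2.10 (SE 0.94, limma adjusted p = 0.494), and it was 3.59 and called without Ly6D+ CLP array 1 (limma adjusted p = 0.0363) but 0.61 without Ly6D+ CLP array 2 (limma adjusted p = 1). With 1 Ly6D+ array left, that array is assumed to vary like those of the other groups. No pair of neighbours in the order of the 6 groups differed.

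Fcgr2b had 5 probe sets, of which 4 were called lower in Pax5KO cells. From the brightest to the dimmest, the 4 fell by 5.73, 4.26, 4.57 and at least 4.14, and the fifth was at the floor on all arrays. When each probe set was tested on its own, the second brightest (2.90, SE 0.52, limma adjusted p = 0.0105) and the third brightest (3.49, SE 0.78, limma adjusted p = 0.027) were called higher in PreB than in ProB. Ly6D+ CLP array 2 exceeded array 1 on all 4 readable probe sets, with 7.70 against 4.73 on the brightest and 5.73 against 2.64 on the dimmest of them. The names of the 2 brightest carry the suffixes _s and _x, which mark probes that can match further transcripts, and Fcgr3, an activating IgG receptor with a closely related sequence, could add to their signal. Fcgr3 read 2.64, 2.33 and 2.55 in Pax5KO cells and 2.38, 2.46 and 3.21 in WT engrafted cells, close to the floor in both, and 3.84 and 5.57 in PreB.

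**Figure D2:**
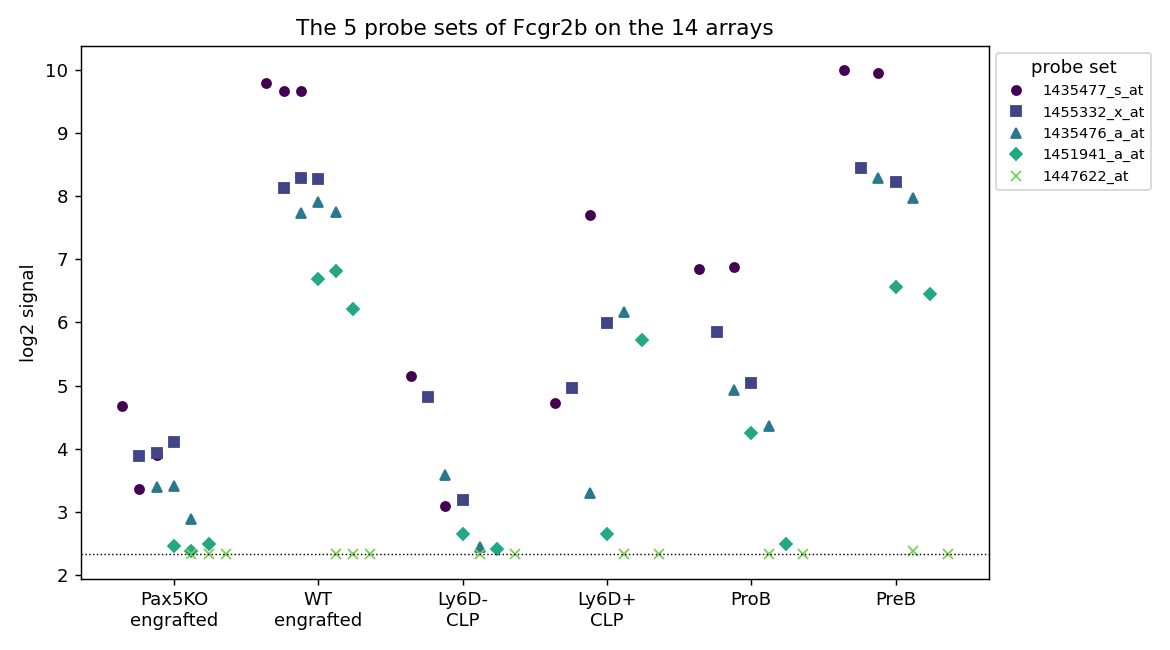
The log2 signal of the 5 probe sets annotated to Fcgr2b on each of the 14 arrays, by group, with the lowest value of the table as a dotted line and the points of a group set apart sideways. Of the 5 probe sets, 4 lie lower in Pax5KO than in WT engrafted cells, and the fifth stays close to the lowest value throughout.

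Myeloid, NK and basophil markers moved with some of these groups, and granulocytes, monocytes and dendritic cells are known to carry Fcgr2b as well. In PreB against ProB, where 6.35% of all genes were called higher, 5 of 7 granulocyte markers were higher, with a summed signal of 9985 to 16255 in PreB and 48.5 to 51.5 in ProB, and only Elane was at the floor in PreB. Of the monocyte and macrophage markers 2 of 8 were higher (339 to 466 in PreB and 54.8 to 57.6 in ProB), and Itgam, Fcgr1 and C1qa were at the floor in PreB. Of the dendritic markers 2 of 6 were higher (1392 to 1492 in PreB and 32.9 to 33.2 in ProB), with Xcr1 and Cd209a at the floor. Of the NK markers 3 of 5 were higher (1943 to 2728 in PreB and 32.1 to 32.6 in ProB), with Ncr1 at the floor. The gap between the 3' and 5' probe sets of actin, a sign of shortened RNA, was 6.71 to 7.27 in PreB and 2.73 to 3.67 in ProB. The part of these cells and of RNA length in the PreB values was not tested. Between Ly6D+ and Ly6D- CLP no granulocyte marker was called, with a summed signal of 1696 to 2169 in Ly6D+ and 5363 to 7688 in Ly6D- CLP. The 2 Ly6D- CLP arrays differed widely, with a mean log2 signal of these markers of 3.83 and 8.51, against 3.78 to 4.00 in Ly6D+ CLP. In Ly6D+ CLP S100a9, Elane, Camp, Ngp and Ltf were at the floor, and in Ly6D- CLP Elane alone. Mpo had the highest mean of the list in both, 10.87 in Ly6D+ and 12.25 in Ly6D- CLP. The actin gap of Ly6D+ CLP was 3.56 on array 1 and 5.57 on array 2. The part of either in the CLP values was not tested. In Pax5KO against WT engrafted cells none of the granulocyte, monocyte or dendritic markers was called. The summed granulocyte signal was 234 to 363 in Pax5KO cells and 234 to 1114 in WT engrafted cells. Elane, Camp, Ngp and Ltf were at the floor in Pax5KO cells and Ltf alone in WT. S100a8 differed by -2.31 (SE 1.71), S100a9 by -2.13 (SE 1.36) and Mpo by 0.63 (SE 1.07). In the same order of groups, the summed monocyte signal was 50.4 to 111 and 77.2 to 115. The dendritic signal was 36.2 to 116 and 30.0 to 31.0. All dendritic markers were at the floor in WT engrafted cells and all but Ccr9 in Pax5KO cells. Ccr9 was higher in Pax5KO cells by at least 2.73 and was not called (limma adjusted p = 0.0813). Of 5 mast cell and basophil markers 2, Cpa3 and Ms4a2, were lower. Of 5 NK markers 1, Klrd1, was higher by 3.33 (limma adjusted p = 0.00137). Over all genes 2.29% were lower and 3.64% higher. The summed NK signal was 83.6 to 158 in Pax5KO cells and 26.9 to 34.3 in WT engrafted cells, with Ncr1, Prf1 and Eomes at the floor in both. Of 6 plasma cell markers Jchain was higher by 6.90 and Sdc1 lower by -3.12, with a summed signal of 5197 to 8430 in Pax5KO cells and 1871 to 2536 in WT engrafted cells, and Prdm1 and Tnfrsf17 were at the floor in both. The summed mast cell and basophil signal was 84.9 to 160 in Pax5KO cells and 218 to 613 in WT engrafted cells, with Cpa3 and Fcer1a at the floor in Pax5KO cells and none in WT. The part of these cells in the result was not tested.

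Fcrla read 2.61, 2.49 and 2.88 in Pax5KO cells and 12.67, 12.25 and 11.88 in WT engrafted cells. Among the cells without transplant, Ly6D- CLP had 2.51 and 2.41, Ly6D+ CLP 2.46 and 2.51, ProB 8.01 and 9.10 and PreB 13.30 and 13.06. The Pax5KO arrays stood beside the CLP arrays, which were at the floor. Fcrla fell by 9.61 in Pax5KO against WT engrafted cells (SE 0.28, limma adjusted p = 4.3e-07), and its other probe sets fell by 7.79 and by at least 4.77. Pax5KO cells and Ly6D+ CLP differed by 0.17 (95% interval -0.55 to 0.89). The transcript appeared in 2 steps, higher in ProB than in Ly6D+ CLP by 6.07 (SE 0.35, limma adjusted p = 7.24e-05) and higher in PreB than in ProB by 4.62 (SE 0.35, limma adjusted p = 0.000113). The first of these is a lower bound, since Ly6D+ CLP were at the floor. With only the 2 groups in the fit neither step was called (limma adjusted p = 0.14 and 0.0895). WT engrafted cells and PreB differed by -0.91 (limma adjusted p = 0.151). The other probe sets, each tested on its own, disagreed in direction at this comparison. The brighter of them was higher in WT engrafted cells by 1.46 and called (limma adjusted p = 0.00686). The dimmer differed by -0.99 and was not called (limma adjusted p = 0.286).

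Fcmr, the IgM receptor, read 2.32, 2.44 and 2.34 in Pax5KO cells and 11.12, 11.15 and 10.26 in WT engrafted cells. Both Ly6D- CLP arrays read 3.34, the Ly6D+ CLP arrays 2.32 and 2.44, the ProB arrays 5.15 and 4.93 and the PreB arrays 8.84 and 8.44. Pax5KO cells and Ly6D+ CLP were at the floor, and the other 4 groups were above it. The 2 Ly6D- CLP arrays gave an identical value, and whether it exceeds the background of this probe set was not tested. Fcmr fell by at least 8.48 in Pax5KO against WT engrafted cells (SE 0.22, limma adjusted p = 2.83e-07). It was higher in ProB than in Ly6D+ CLP by at least 2.66 (SE 0.27, limma adjusted p = 0.000903), in PreB than in ProB by 3.60 (SE 0.27, limma adjusted p = 0.000117), and in WT engrafted cells than in PreB by 2.20 (SE 0.25, limma adjusted p = 0.00142). With only the 2 groups in the fit none of these 3 was called (limma adjusted p = 0.0985, 0.051 and 0.101). The 4 highest groups, Ly6D- CLP, ProB, PreB and WT engrafted in this order, each differed from the next. Between Ly6D+ and Ly6D- CLP the difference was -0.95 (SE 0.27, limma adjusted p = 0.181), and none of the 7 receptors was called at this step, where 1.45% of all genes were called in either direction and Fcmr alone had an unadjusted p under 0.05.

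Fcer2a, whose product CD23 marks mature B cells, had the widest spread of the 7 among WT engrafted arrays (SD 1.80). It read 2.37, 2.39 and 2.39 in Pax5KO cells and 6.05, 6.40 and 3.11 in WT engrafted cells, and 3.78 and 4.74 in PreB. Both CLP groups and ProB were at the floor. The fall in Pax5KO against WT engrafted cells was at least 2.81 (SE 0.74) and was not called (limma adjusted p = 0.0685), although every Pax5KO array lay below every WT engrafted array, as for 7.65% of all genes. Without WT engrafted array 3, it was 3.84 in size and called (limma adjusted p = 0.000119). That array is the WT engrafted array with high Xist, and its actin gap was 3.47, against 2.51 and 2.56 on the others. The part of either in the result was not tested. PreB exceeded ProB by at least 1.86 (SE 0.90, limma adjusted p = 0.272), and in a fit that held high Xist as a term this difference was -1.25. A second probe set of Fcer2a was at the floor in all groups.

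Ms4a1, the CD20 gene, read 2.42, 2.36 and 3.12 in Pax5KO cells and 12.41, 12.23 and 10.90 in WT engrafted cells. Among the cells without transplant, Ly6D- CLP had 2.36 and 2.42, Ly6D+ CLP 2.42 and 2.39, ProB 7.01 and 7.02 and PreB 10.47 and 10.05. The highest Pax5KO array, array 3, was the only one of that group over 0.5 above the floor. Ms4a1 fell by 9.21 in Pax5KO against WT engrafted cells (SE 0.37, limma adjusted p = 3.09e-06), and its second probe set fell by at least 9.24. ProB exceeded Ly6D+ CLP by at least 4.60 (SE 0.46, limma adjusted p = 0.000866) and PreB exceeded ProB by 3.25 (SE 0.46, limma adjusted p = 0.00278; 0.0524 with only these groups in the fit). The excess of WT engrafted cells over PreB, 1.59, was not called (limma adjusted p = 0.0595), and without WT engrafted array 3 it was 2.06 and called (limma adjusted p = 0.00446). On the second probe set, tested on its own, this excess was 2.50 and called on all arrays (limma adjusted p = 0.00177).

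Some markers of later B cells differed in the same comparisons. Of 6 measured mature B cell markers, 3 were lower in Pax5KO than in WT engrafted cells, against 2.29% of all genes: Cd40, Cd55 and Tnfrsf13c. Ltb, Cr2 and Ccr6 were not called. The summed signal of the list was 325 to 510 in Pax5KO cells and 2103 to 3135 in WT engrafted cells, with Cr2 and Ccr6 at the floor in Pax5KO cells and none in WT. The same 3 genes were higher in PreB than in ProB, against 6.35% of all genes, with a summed signal of 3199 to 4058 in PreB and 199 to 327 in ProB. The share of later B cells within the sorted populations was not measured, and its part in the results was not tested. Of 6 lymphoid progenitor markers, Flt3, Kit, Dntt and Cd27 were higher in Pax5KO than in WT engrafted cells, against 3.64% of all genes. Il7r (0.52) and Ly6d (-1.05) were not called.

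Read across the comparisons, the receptors differed in the steps at which their lead probe sets were called. Between ProB and Ly6D+ CLP 4 of the 7 were called higher (Cd22, Fcrla, Fcmr and Ms4a1), against 1.93% of all genes. Between PreB and ProB 4 were called higher (Cd72, Fcrla, Fcmr and Ms4a1), against 6.35% of all genes. Between Pax5KO engrafted cells and ProB, 5 were lower, against 1.02% of all genes: Cd72 by -6.22, Fcrla by -5.90, Ms4a1 by -4.38, Fcmr by at least 2.68 in size and Cd22. Between Pax5KO engrafted cells and Ly6D+ CLP only Cd22, higher, and Cd72, lower, were called, where 0.781% of all genes were higher and 1.03% lower. Between WT engrafted cells and PreB only Cd22 and Fcmr were called on their lead probe sets, both higher, against 4.52% of all genes. Further probe sets of Fcrla and Ms4a1, tested on their own, were called higher there as well. Comparisons that share a group are not independent of each other.

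**Figure D3:**
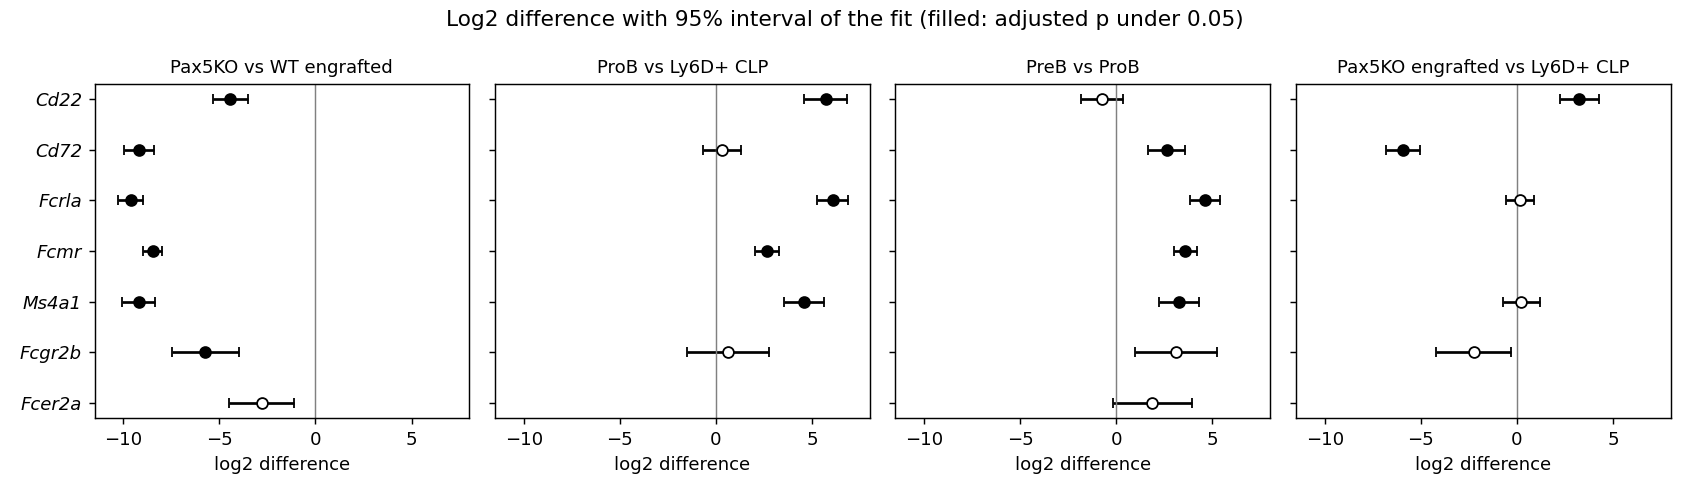
Log2 differences of the receptors (points) with the 95% interval of the limma fit (bars) in 4 comparisons, where a positive value is higher in the group named first and filled points have an adjusted p under 0.05; receptors at the floor in both groups have no point. The groups have 3 arrays (engrafted) or 2 arrays (others). Cd22 and Cd72 lie on opposite sides of 0 between Pax5KO engrafted cells and Ly6D+ CLP.

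Other receptors with inhibitory motifs were read from a list of 15 measured genes. Of these, 4 were lower in Pax5KO than in WT engrafted cells, 2 were at the floor in both groups and none was higher, against 2.29% of all genes lower and 3.64% higher. The median difference of the list was -0.15, against 0 over all genes. Siglecg, a sialic acid-binding relative of CD22, read 3.40, 3.76 and 4.36 in Pax5KO cells and 10.57, 10.63 and 10.31 in WT engrafted cells. Its difference was -6.66 (limma adjusted p = 3.09e-06). Btla, an inhibitory receptor for HVEM, fell by 6.75 (limma adjusted p = 0.00182) and read 3.08, 3.65 and 2.32 in Pax5KO cells and 10.27, 10.33 and 8.70 in WT engrafted cells. Its CLP arrays were between 6.72 and 9.71, so like Cd72 it was high in both CLP groups. Fcrl1 fell by 2.32, and Pirb, the paired immunoglobulin-like receptor, was at the floor in Pax5KO cells and had a difference of -1.74. Siglecg was lower in Pax5KO cells than in ProB (-2.74) and than in Ly6D+ CLP (-2.52), both called. Pdcd1, which encodes PD-1, was higher in ProB than in Ly6D+ CLP by 2.36 and lower in PreB than in ProB by -2.01. Of the 15 genes, 1 was called higher and none lower between ProB and Ly6D+ CLP, against 1.93% of all genes called higher. Between PreB and ProB 2 were called higher and 1 lower, with a median difference of 1.05, against 6.35% of all genes called higher.

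Of 12 measured Fc and Fc-like receptor genes outside the 7, 2 were lower and 1 was higher in Pax5KO than in WT engrafted cells, and 5 were at the floor in both groups. Over all genes 2.29% were lower and 3.64% higher in this comparison, and the same shares stand behind the MS4A count. Fcer1g, the signalling chain shared by activating Fc receptors, read 6.40, 6.88 and 7.21 in Pax5KO cells and 4.40, 3.59 and 4.94 in WT engrafted cells, and was higher by 2.52 (limma adjusted p = 0.00487). It was also lower in ProB than in Ly6D+ CLP (-3.44) and higher in PreB than in ProB (3.62). Ms4a2, the beta chain of the IgE receptor of mast cells and basophils, was lower by -2.82, and Fcrl1 was the other gene called lower. In the MS4A family, to which Ms4a1 belongs, 1 of 13 measured members (Ms4a2) was lower and 2 (Ms4a6b by 3.13 and Ms4a4b by 3.12) were higher in Pax5KO than in WT engrafted cells, with 6 at the floor in both.

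Downstream of the inhibitory motifs, 2 of 13 phosphatases, kinases and adaptors were lower in Pax5KO than in WT engrafted cells and none was higher, against 2.29% and 3.64% of all genes. Ptpn6, which encodes SHP-1, read 10.39, 10.68 and 10.77 in Pax5KO cells and 11.82, 12.06 and 11.80 in WT engrafted cells, a fall of 1.27 (limma adjusted p = 0.0297). Dok3, an adaptor of inhibitory signalling in B cells, was lower by -2.09. Dok2 was lower in ProB than in Ly6D+ CLP (-3.44), and Inppl1, which encodes SHIP-2, was higher in PreB than in ProB (1.71).

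On the side that the receptors restrain, 4 of 10 measured B cell receptor and co-receptor genes were lower and 2 were higher in Pax5KO than in WT engrafted cells, with a median of -0.82, against 2.29% lower and 3.64% higher over all genes. The ligand list was read against the same shares. Pik3ap1, an adaptor for PI3-kinase, was lower by -3.29, Cd79a, a signalling chain of the B cell receptor, by -3.10, and the kinase Syk by -1.74. Cd81 (0.94) and Plcg2 (0.77) were higher. Among 7 measured ligands and ligand-making enzymes, Ighm, which encodes the heavy chain of IgM, the ligand of the Fcmr product, was called lower (-1.95) and none was higher. Cmah, an enzyme that modifies the sialic acids CD22 binds in the mouse, was lower in ProB than in Ly6D+ CLP (-6.39) and higher in PreB than in ProB (4.56), and St6gal1, which makes the linkage CD22 binds, was higher in Ly6D+ than in Ly6D- CLP (2.81).

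**Figure D4:**
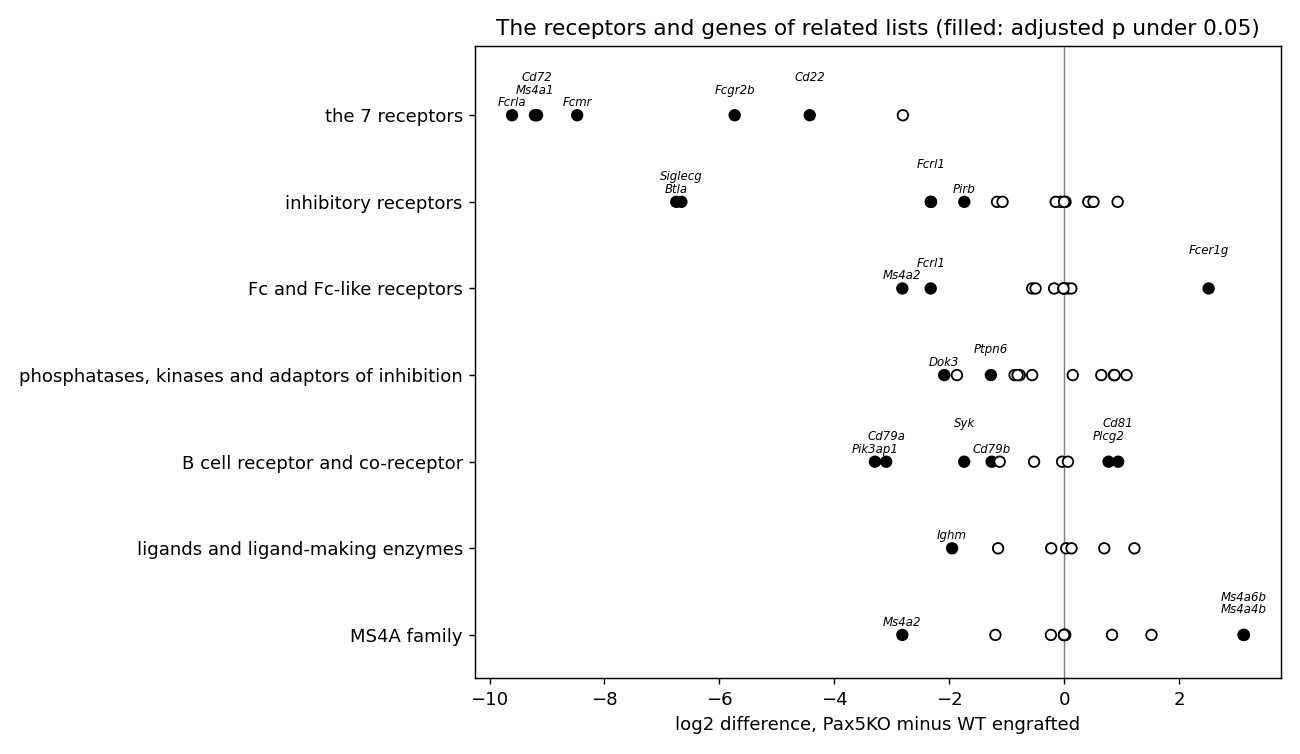
Log2 differences between Pax5KO and WT engrafted cells (3 arrays each) for the 7 receptors and for the measured genes of 6 related lists, filled and named where the adjusted p was under 0.05; a negative value is lower in Pax5KO cells. The receptors lie between -9.61 and -2.81, and the lists scatter on both sides of 0.

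The genes whose levels followed each receptor most closely over the 14 arrays were searched among 12259 genes above the floor in at least 1 group. For Ms4a1 they were Scd1 (Pearson r = 0.992), Otub2 (0.989) and Egfl6 (0.972), and for Fcrla they were Ikzf3, which encodes the B cell factor Aiolos (0.988), Scd1, a fatty acid desaturase (0.988), and Bcar3 (0.985). Scd1 stood in both sets. For Fcmr they were Ltk (0.979), Slc12a3 (0.976) and Rasgrp1 (0.975). For Cd72 they were Mgst1 (0.955), Tmprss3 (0.939) and H2-Ab1 (0.927), an MHC class II chain, and for Fcgr2b they were Lmo4 (0.956), Mgst1 (0.931) and Cpm (0.930). Mgst1 also stood in both sets, and had means of 2.36 in Pax5KO and 9.66 in WT engrafted cells. For Cd22 they were Cdc25b (0.962), Ptgr1 (0.957) and Id3 (0.945), and for Fcer2a they were S1pr1 (0.968), 5830428M24Rik (0.964) and Rap1gap2 (0.958). Among the 7 receptors themselves, r was lowest between Cd22 and Cd72 (0.444) and highest between Fcrla and Ms4a1 (0.981). These correlations describe arrays that share their groups and their floor.

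The nearest measured genes on the chromosomes were read beside the receptors. Of 24 such neighbours that are not receptors themselves, 2 on each side, 1 was lower and 1 was higher in Pax5KO than in WT engrafted cells, where 2.29% of all genes were lower and 3.64% higher, and 13 were at the floor in both groups. Ffar2, the measured gene next to Cd22 on chromosome 7, encodes a surface receptor that senses short-chain fatty acids. It read 9.79, 9.91 and 10.60 in Pax5KO cells and 2.59, 2.59 and 2.63 in WT engrafted cells. The Pax5KO arrays exceeded all other arrays of the series, and the difference was at least 7.50 (SE 0.62, limma adjusted p = 0.00019). Sit1, an adaptor that recruits the phosphatase SHP-2 and the measured gene next to Cd72 on chromosome 4, fell by 3.10 (SE 0.25, limma adjusted p = 0.00015). Fcrla and Fcgr2b are neighbours on chromosome 1, beside Fcgr4, which was at the floor in both groups. The genes next to Fcmr on chromosome 1, Pigr and Il24, and next to Ms4a1 on chromosome 19, Ms4a7 and 4930526L06Rik, were at the floor in both groups as well.

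**Figure D5:**
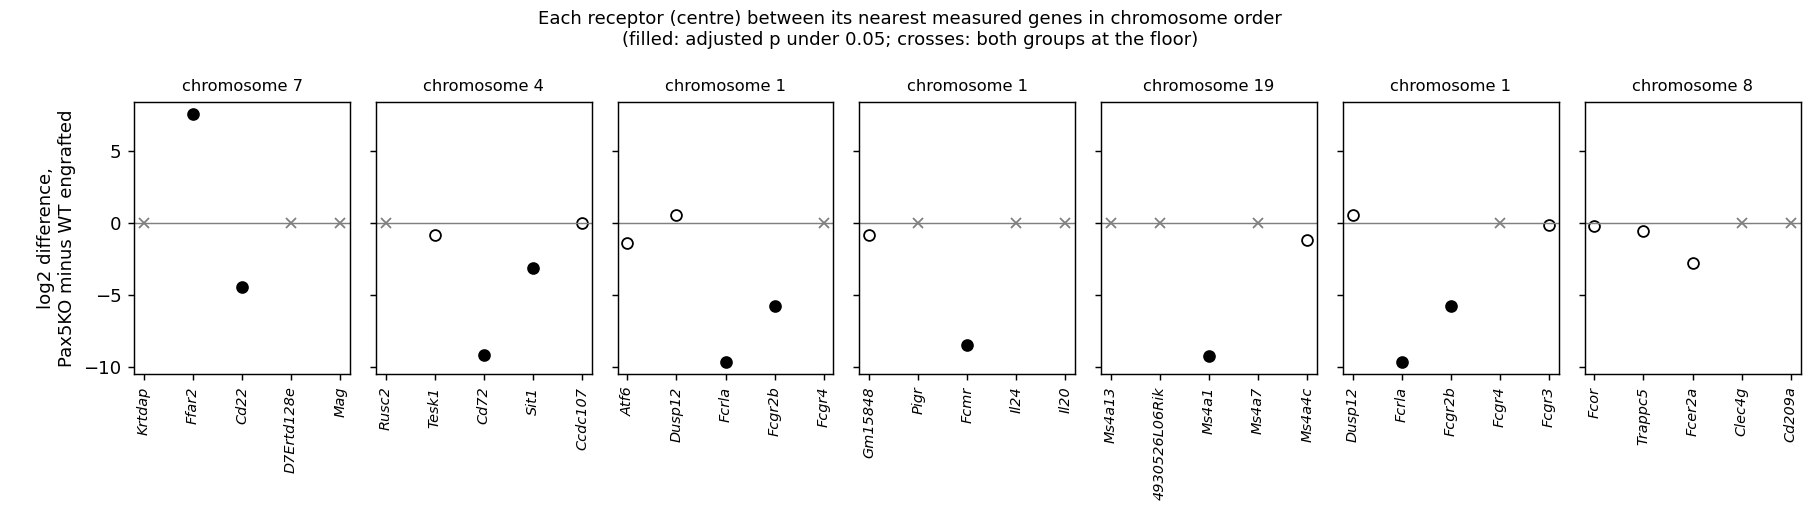
Log2 differences between Pax5KO and WT engrafted cells (3 arrays each) for each receptor, in the centre of its panel, and the 2 nearest measured genes on each side, in chromosome order and not to scale. Filled points have an adjusted p under 0.05 and crosses are genes at the floor in both groups. Beside Cd22, Ffar2 is higher in Pax5KO cells by at least 7.50.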

How the data were processed

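The authors deposited 1 table of log2 signals for 45101 probe sets on 14 arrays. The submitters' processing notes name GCRMA, RMA and limma; versions, and which of them made the table, are not given in the sources used here. Array medians lay between 2.41 and 2.52, and the table was used as deposited.

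Gene symbols were those of the platform annotation, brought up to date with RefSeq (GRCm38.p6): 34945 probe sets had 1 symbol, 932 several and 9160 none here, and 64 were controls. Each gene was read by its probe set of highest mean. limma 3.58.1 in R 4.3.3 (lmFit, eBayes; two-sided, 8 residual degrees of freedom, group means over all 14 arrays) was checked on simulated data.

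The receptors, lists and rule for named genes (the receptors, the strongest called genes per list, the 3 closest correlates and the chromosome neighbours) were chosen with earlier results of these data known. Fcgr3 and the sets of marker genes named were read beside them. Levels of Siglecg, Btla and Ptpn6 per array were picked after their values were seen. Deviations of same-numbered engrafted arrays had correlations of 0.134, 0.302 and 0.539, and differently numbered pairs lay between -0.480 and 0.377. Pax5KO array 1 correlated best with WT array 2 (0.377), and Pax5KO array 2 with WT array 1 gave 0.190. Only the arrays numbered 3 thus stood apart, and pairing of numbers 1 and 2 is not shown. The main fit held no term for pairs, and a replicate block was used as an alternative. Same-numbered arrays of untransplanted cells had correlations below 0.1 in size. Alternatives are listed at the end.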

Additional observations from a re-analysis of the deposited data

How the results depend on the processing

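Of 609 recomputations of 42 receptor differences, 560 kept direction and call, 15 lost the call, 27 gained it and 7 changed sign. The count of receptors called between Pax5KO and WT engrafted cells was 6 or 7 throughout. With only the 2 groups compared in the fit, which leaves fewer residual degrees of freedom, 2 receptors were called between ProB and Ly6D+ CLP, 1 between PreB and ProB, 0 between Pax5KO engrafted cells and Ly6D+ CLP and 1 between WT engrafted cells and PreB. Array weights left 1 between Pax5KO engrafted cells and Ly6D+ CLP. A term for arrays with high Xist gave 1 between Ly6D+ and Ly6D- CLP (Fcmr) and 4 between WT engrafted cells and PreB. Leaving out arrays in turn gave 0 to 1 between Ly6D+ and Ly6D- CLP and 2 to 4 between WT engrafted cells and PreB. The causes were not tested.

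Signs changed for small or uncalled differences. Fcgr2b in ProB against Ly6D+ CLP was -0.058 with the mean of its probe sets, and -0.84 to 2.13 with arrays left out. Fcer2a in PreB against ProB was -1.25 with the Xist term. With arrays left out, Cd72 ranged from -0.23 to 0.89 between Ly6D+ and Ly6D- CLP and from -0.25 to 0.87 between ProB and Ly6D+ CLP (-0.03 without ProB array 2), and Ms4a1 from -0.015 to 0.36 between Pax5KO engrafted cells and Ly6D+ CLP.

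The replicate block changed no receptor call between the engrafted groups (6 called with it and without it). Between the CLP groups, where pairing by number is not shown, all genes called were 169 with the block and 264 without it. The counts of all genes called moved more: with equal array medians, 7294 were called between Pax5KO engrafted cells and ProB, against 953 as deposited, and the share higher was 14.4%, against 80.6%. That scaling moved the median gene by -0.34 there, by 0.24 in ProB against Ly6D+ CLP and by -0.22 in WT engrafted cells against PreB, where the share higher was 42.2% against 26.5% and 44.2% against 61.2%. Quantile normalization gave 63.2% in Pax5KO engrafted cells against ProB and 39.6% in ProB against Ly6D+ CLP. Across settings all genes called were 676 to 3065 between the engrafted groups (1080 as deposited), 1 to 1144 between the CLP groups, 3 to 2129 between ProB and Ly6D+ CLP (1327), 487 to 3076 between PreB and ProB (2100), 56 to 1247 between Pax5KO engrafted cells and Ly6D+ CLP (330) and 460 to 1970 between WT engrafted cells and PreB (1343). Leaving out both engrafted arrays numbered 3 was added after seeing the data, and Fcer2a then fell by 3.85 and was called. The few arrays per group and the floor limit what can be resolved.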
